A study of Mus musculus with 4 samples.

Results

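The 9 genes described here make, cut, move and load the peptides that MHC class I molecules show at the cell surface: *B2m*, *H2-K1*, *H2-D1*, *Tap1*, *Tap2*, *Tapbp*, *Psmb8*, *Psmb9* and *Nlrc5*. They were chosen by name and are 9 of the 32285 genes in the count tables. All 9 were detected in every library. They were followed through 4 single-cell RNA-seq libraries of fracture callus from wild-type C57BL/6J mice, 3 months old. Control mice received vehicle, and RA mice received serum of arthritic K/BxN mice, which transfers an antibody-driven arthritis. Callus was collected at 4 or 7 days post fracture (dpf), which gives the libraries control_4d, control_7d, RA_4d and RA_7d. Per the labels, each library is 1 pool of 4 calluses, while the study's methods give another number. The mice were male and the fracture was of the tibia. Serum transfer bypasses the loss of T and B cell tolerance that starts the disease in K/BxN mice, so the arthritis of these mice is passively given. With 1 library per condition and time, no test between conditions at a given time was possible, none was made across the times, and library and condition cannot be told apart. Each value carries an exact 95% interval that covers counting error only.

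Almost every nucleated cell shows peptides from its own proteins on MHC class I. The proteasome cuts the proteins, and in immune cells or under interferon-γ its catalytic subunits are replaced by the immunoproteasome subunits Psmb8 and Psmb9. The transporter made of Tap1 and Tap2 moves the peptides into the endoplasmic reticulum, where tapasin (*Tapbp*) holds the empty class I molecule beside it. The heavy chains H2-K1 and H2-D1 then leave for the surface with the light chain β2-microglobulin (*B2m*), where CD8 T cells and natural killer (NK) cells read them. Nlrc5 is the transactivator that is recruited to the promoters of the heavy chain genes and of some of the other genes of this pathway.

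In the GRCm38 build with GENCODE M21 annotation, 7 of the 9 genes lie within 1351.6 kb of chromosome 17, in the MHC: *Tapbp* at chr17:33915899-33929292, *H2-K1* at chr17:33996017-34000347, *Psmb9* at chr17:34181987-34187764, *Tap1* at chr17:34187553-34197225, *Psmb8* at chr17:34197721-34201454, *Tap2* at chr17:34203527-34216321 and *H2-D1* at chr17:35262730-35267499. *B2m* is at chr2:122147686-122153083 and *Nlrc5* at chr8:94434356-94527272. RefSeq promoters of the same build (GRCm38.p6) were matched for 7 of the 9 genes. They run from 250 bases before to 50 bases after a start, 300 bases in all. The 250 bases before the start are printed for *B2m* and both heavy chains, which were higher together in mesenchymal cells of RA_7d, and for *Tap1*, which shares its promoter with *Psmb9*. Capitals mark matches on either strand to an interferon-stimulated response element (GAAANNGAA), a STAT site (TTCNNNGAA), a CCAAT box (CCAAT), a cAMP response element core (TGACG), of the kind present in the class I enhanceosome, and a shorter interferon-type motif (AANNGAAA) that was added after the sequences had been read. Each is written 5′ to 3′ on the strand of its gene, and for *H2-K1* the first of its 2 starts is shown.
B2m, chr2:122147437-122147686 (+ strand): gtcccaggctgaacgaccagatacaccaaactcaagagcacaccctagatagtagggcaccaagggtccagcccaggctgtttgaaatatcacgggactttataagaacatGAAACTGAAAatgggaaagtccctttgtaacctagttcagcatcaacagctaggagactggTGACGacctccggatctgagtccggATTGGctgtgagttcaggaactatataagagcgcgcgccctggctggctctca
H2-K1, chr17:34000334-34000583 (- strand): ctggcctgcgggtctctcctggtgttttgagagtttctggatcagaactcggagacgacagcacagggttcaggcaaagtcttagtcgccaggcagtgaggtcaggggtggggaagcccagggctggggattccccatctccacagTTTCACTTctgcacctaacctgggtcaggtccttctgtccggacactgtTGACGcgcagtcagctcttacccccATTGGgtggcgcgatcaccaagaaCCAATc
H2-D1, chr17:35262844-35263093 (+ strand): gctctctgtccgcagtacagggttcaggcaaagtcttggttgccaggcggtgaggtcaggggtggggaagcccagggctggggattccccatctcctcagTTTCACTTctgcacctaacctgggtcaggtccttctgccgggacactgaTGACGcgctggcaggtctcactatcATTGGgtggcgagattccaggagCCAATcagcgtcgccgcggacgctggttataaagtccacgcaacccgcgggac
Tap1, chr17:34187306-34187555 (+ strand): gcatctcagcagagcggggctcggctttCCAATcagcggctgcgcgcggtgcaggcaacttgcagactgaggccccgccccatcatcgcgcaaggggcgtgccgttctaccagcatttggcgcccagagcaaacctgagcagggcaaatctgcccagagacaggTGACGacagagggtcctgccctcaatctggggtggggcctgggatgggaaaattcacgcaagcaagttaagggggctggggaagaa

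The interferon element matched in 1 of the 7 genes, *B2m*, with its first base 139 bases before the start, against 8.56% of 32851 mouse promoters of this length. There it overlaps the shorter motif, which also matched in *H2-K1* and *H2-D1* (3 of 7, against 23.9% of promoters). CCAAT was present in 6 of the 7 (37.4% of promoters), with *Psmb8* the exception. TGACG was present in 5 of the 7 (20.8% of promoters), namely *B2m*, *H2-K1*, *H2-D1*, *Tap1* and *Psmb9*. The STAT motif matched only in *Psmb8* (8.3% of promoters). The longest run of bases shared by the *H2-K1* and *H2-D1* promoters is 47, and that of either with *B2m* is 8. The starts of *Tap1* and *Psmb9* lie 226 bases apart on opposite strands, and their windows overlap by 275 bases. The TGACG match of *Tap1* and that of *Psmb9* are the same bases read from opposite strands, and so are their CCAAT matches. With this shared sequence and that of *H2-K1* and *H2-D1*, the counts of genes with a motif are not counts of separate promoters. A match is a string of letters and not evidence of binding.

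Cell limits were those of the study, namely 2000 to 7000 features, 4000 to 50000 UMIs and a mitochondrial share of 8% or less. By these, 25479 of 34038 barcodes were kept, between 4110 and 8223 per library, with median depths of 16093.5 to 17631.5 UMIs. Library pairs shared at most 15 barcodes. Clustering without the class I genes gave 23 clusters, of which 22 could be named from markers. The lineages differed in share between libraries. Myeloid cells made up 61.4% (control) and 58.7% (RA) of cells at 4 dpf and 35.2% and 19.5% at 7 dpf. Mesenchymal cells made up 18.1% and 19.6% at 4 dpf and 42.1% and 49.4% at 7 dpf. A level summed over the whole callus therefore changes with the mix of cells as well as with the level in each.

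Across cell classes the surface chains were most abundant in macrophages and lymphocytes and least abundant in muscle and cartilage-forming cells. Levels are given as CPM, the UMIs of a gene in the summed cells of a class scaled to the total UMIs of those cells, and are compared for 1 gene at a time, since 3′ UMI counts do not put different genes on a common scale. *B2m* averaged 2942 CPM in the macrophage-like class led by *Ccl8* and *Cbr2* (range over the 4 libraries 2800 to 3063) and 168.7 CPM in muscle-like cells, a 17.4-fold span. *H2-K1* was highest in T or NK lymphocyte-like cells, at 1663 CPM (1475 to 1855), and lowest in osteochondral-like cells, at 81.25 CPM. *H2-D1* was highest in the same macrophage-like class as *B2m*, at 2106 CPM (1686 to 2523), and was 94.89 CPM in osteochondral-like cells. *H2-K1* and *H2-D1* are close copies, so reads that fit both cannot be placed with certainty and their levels are uncertain to that extent.

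*Tap1*, *Tap2*, *Psmb8* and *Psmb9* were highest in dendritic cell-like cells, while *Tapbp* and *Nlrc5* shared their leading class with a surface chain. For *Tap1* and *Psmb9* the lead overlapped the range of cycling myeloid-like cells, the next class (54.28 to 105.4 and 96.78 to 210.8 CPM). *Tap1* averaged 103.5 CPM in dendritic cell-like cells (81.89 to 133.3) and 3.658 CPM in osteochondral-like cells. *Tap2* averaged 85.91 CPM and 4.082 CPM in the same classes. *Tapbp* spanned the least, 7.19-fold from 221.1 CPM in the *Ccl8* and *Cbr2* macrophage-like class to 30.77 CPM in osteochondral-like cells. The immunoproteasome genes spanned the most. *Psmb8* averaged 629.4 CPM in dendritic cell-like cells (509.6 to 715.9) and 5.008 CPM in osteochondral-like cells, 126-fold apart. *Psmb9* averaged 240.9 CPM in dendritic cell-like cells (191.5 to 305.0) and 2.295 CPM in osteochondral-like cells, 105-fold apart. *Nlrc5*, the transactivator, averaged 58.83 CPM in T or NK lymphocyte-like cells (55.91 to 61.68), above 36.99 CPM in dendritic cell-like cells without overlap between libraries, and was 1.389 CPM in osteochondral-like cells.

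Osteochondral-like cells had the lowest mean for 8 of the 9 genes, muscle-like cells for *B2m*. They were seen at 7 dpf alone in number (264 cells in control_7d and 138 in RA_7d, with 1 and 3 cells at 4 dpf), so their means rest on these 2 libraries. At such low levels RNA of other cells in the droplet can count. The 7 haematopoietic markers *Ptprc*, *Tyrobp*, *Fcer1g*, *Laptm5*, *Coro1a*, *Lyz2* and *Cd52* summed to 361.0 and 291.7 CPM in osteochondral-like cells and to 201.1 to 922.8 CPM in muscle-like cells, and their part in the low levels was not tested. Dendritic cell-like cells had the highest mean for 4 genes, *Ccl8* and *Cbr2* macrophage-like cells for 3 and T or NK lymphocyte-like cells for 2. The order was loose, at the ends as well. The range of the leading class stood clear of the next only for *Tap2*, *Psmb8* and *Nlrc5*. That of the lowest class stood clear of the class above it only for *Tap2*, *Tapbp*, *Psmb8* and *Psmb9*. Of the 22 pairs of classes that follow each other in the order of a gene, the ranges over libraries did not overlap in 0 (*Tap1*) to 5 (*Psmb8*), so most neighbours do not differ beyond the spread of the libraries.

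**Figure D1:**
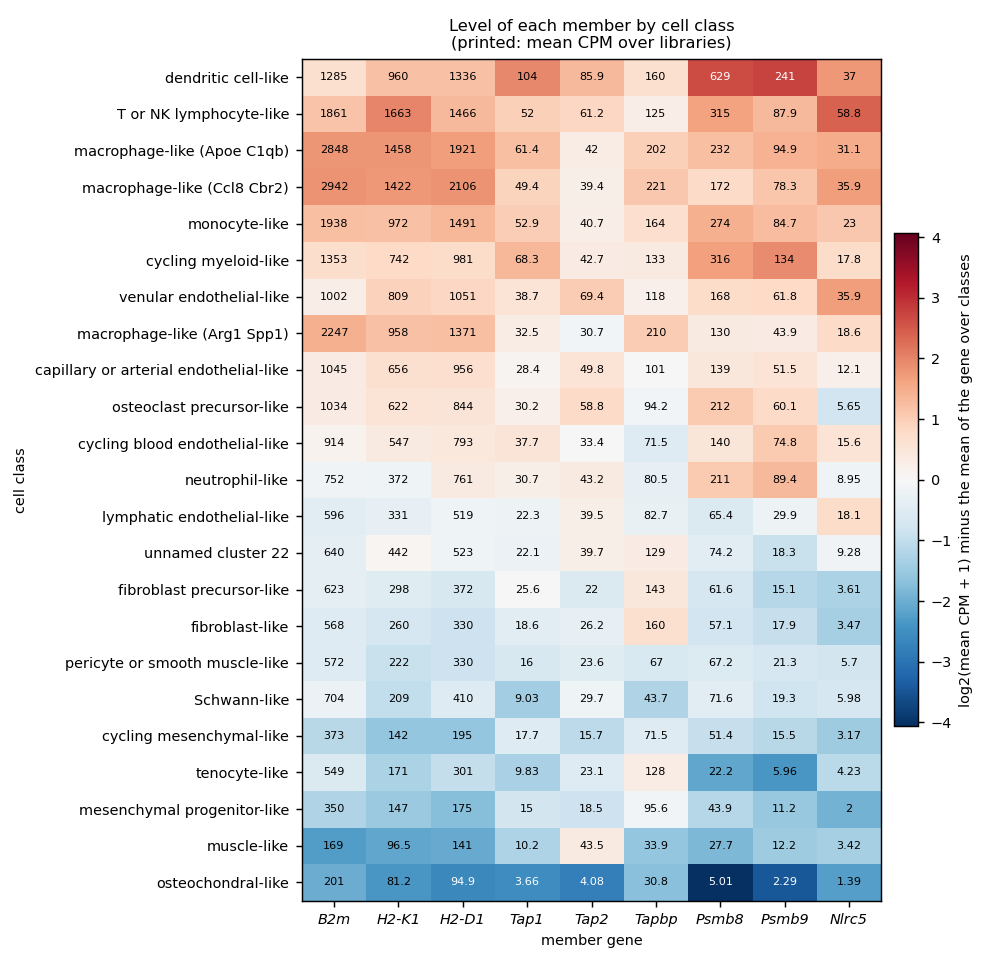
Levels of the 9 genes in 23 cell classes. Each cell prints the mean CPM over the libraries with at least 20 cells of the class, and the colour is the log2 of the mean CPM plus 1, centred on the mean of the gene. By mean rank over the 9 genes, dendritic cell-like cells (3.33) and *Apoe* and *C1qb* macrophage-like cells (3.78) stand highest. T or NK lymphocyte-like (4.22), *Ccl8* and *Cbr2* macrophage-like (4.89) and monocyte-like cells (5.0) follow. The *Arg1* and *Spp1* macrophage-like class stands lower (7.89). The osteochondral-like class has the lowest mean of 8 of the 9 genes.

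Over the 87 sums of class and library, the 36 pairs of the 9 genes had Pearson correlations of 0.335 (*Tap2* with *Tapbp*) to 0.973 (*H2-K1* with *H2-D1*), with a median of 0.778. *Psmb8* and *Psmb9* stood at 0.964. These points share libraries and classes, so the values are descriptions. Of 9441 other genes with a mean of at least 10 CPM, the profile most like the mean of the 9 genes was that of *Psme1* (r = 0.913), a subunit of the proteasome activator PA28. Then came *Rap1b* (0.902), which encodes a small GTPase, *Neurl3* (0.898), *Gch1* (0.898), which makes a precursor of tetrahydrobiopterin, and *Ifnar2* (0.895), a subunit of the receptor for type I interferon.

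Within a class the levels of single cells were summarised by quartiles. In fibroblast-like cells the median of single cells for *B2m* was 541.3 CPM in control_4d and 475.9 in RA_4d, and 407.9 in control_7d and 550.9 in RA_7d. The lower quartile for *H2-K1* in the same cells was 140.2, 115.6, 77.77 and 142.3 CPM in that order, and the upper quartile 345.2, 321.2, 291.9 and 410.8 CPM. In *Ccl8* and *Cbr2* macrophage-like cells the lower quartile of *B2m* stayed between 2083 and 2405 CPM in the 4 libraries. At 7 dpf, RA_7d was above control_7d in fibroblast-like cells at the lower quartile, the median and the upper quartile of both genes.

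The share of immunoproteasome transcripts was highest in dendritic cell-like and lowest in osteochondral-like cells for 2 of the 3 catalytic pairs. *Psmb8* takes the place of *Psmb5*, *Psmb9* that of *Psmb6* and *Psmb10*, which is not among the 9 genes, that of *Psmb7* in the catalytic ring. *Psmb8* made up 82.34% of the UMIs of *Psmb8* and *Psmb5* in dendritic cell-like cells (80.24 to 84.25 over libraries), 75.23% in T or NK lymphocyte-like cells and 2.772% in osteochondral-like cells. *Psmb9* made up 63.17%, 47.12% and 1.055% of its pair in the same classes. *Psmb10* had another order, with 56.6% of its pair in the macrophage-like class led by *Apoe* and *C1qb*, 50.74% in dendritic cell-like cells, 19.26% in osteochondral-like cells and 18.3%, the lowest, in muscle-like cells. For *Psmb8* and *Psmb9*, mesenchymal progenitor-like cells stood at 25.98% and 6.846%, below fibroblast-like cells at 43.6% and 17.06%. Shares of 3′ UMIs compare classes and are not shares of protein.

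**Figure D2:**
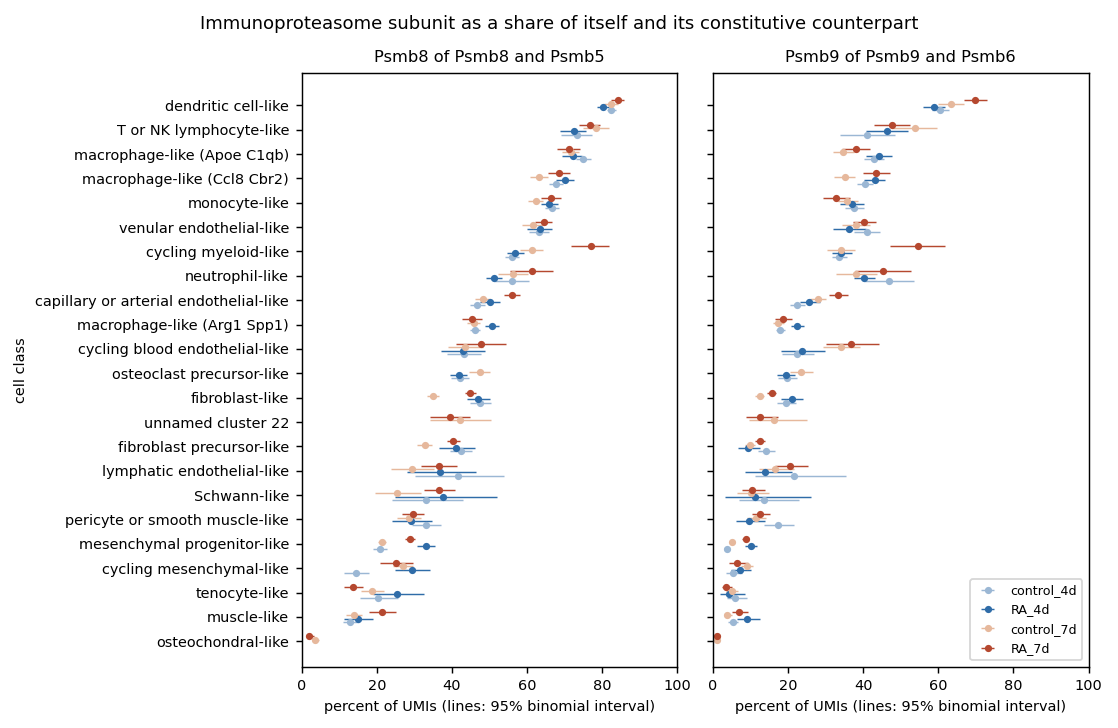
Share of *Psmb8* among UMIs of *Psmb8* and *Psmb5*, and of *Psmb9* among UMIs of *Psmb9* and *Psmb6*, in percent, by cell class. Each point is 1 library. Dendritic cell-like cells lie between 80.24% and 84.25% for *Psmb8* and osteochondral-like cells at 1.948% and 3.595%.

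Over all kept cells, each of the 9 genes differed by less than 1.5-fold between RA and control callus. *B2m* was at 1356 CPM in control_4d and 1206 in RA_4d, and at 934.2 in control_7d and 869.3 in RA_7d. *Psmb8* was at 162.1 and 149.5 CPM at 4 dpf and at 102.2 and 84.28 CPM at 7 dpf. *Psmb9* was at 34.8 and 28.92 CPM at 7 dpf (0.831, 0.798 to 0.866). *H2-D1* was at 949.3 and 780.5 CPM at 4 dpf (0.822, 0.814 to 0.83) and at 667.6 and 612.3 CPM at 7 dpf. At 4 dpf *H2-D1* was lower in every lineage, with a ratio of 0.86 in blood endothelial cells. By class it was then below control in 19 of 21, with the counting interval below 1 in 17. *Tapbp* was higher in RA_7d, at 135.0 CPM against 113.3, and *Tap2* at 30.58 against 28.28. A gene was counted as past the threshold when its ratio of RA to control on the scale of CPM plus 1 reached 1.5-fold, among genes whose UMIs in the compared pair of libraries summed to 50 or more. At 4 dpf, 2.45% of 17615 genes were higher by this measure and 1.36% lower, and 0 of the 9 genes was in either set. At 7 dpf, 4.71% of 19036 genes were higher and 3.37% lower, and again 0 of the 9. All 9 genes had enough UMIs to be compared here and in every lineage. The median log2 ratio of the 9 genes was -0.03 at 4 dpf and -0.10 at 7 dpf, beside 0.03 and 0.01 for all genes.

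The callus sums of every one of the 9 genes were lower at 7 than at 4 dpf, in control and in RA callus. In control the ratio of 7 to 4 dpf lay between 0.61 (*Psmb9*) and 0.753 (*Tapbp*), and in RA between 0.516 (*Psmb9*) and 0.956 (*Tapbp*). Myeloid cells, which had 4.55 times the mesenchymal *B2m* level in control_4d, supplied 50.4% of UMIs in control_4d and 24.3% in control_7d, and 51.2% and 12.8% in the RA libraries.

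Within the mesenchymal lineage at 7 dpf the surface chains were higher in RA callus. *H2-K1* was at 208.7 CPM in control_4d, 192.3 in RA_4d, 176.1 in control_7d and 270.6 in RA_7d, so RA_7d was the highest of the 4 libraries and control_7d the lowest. The 7 dpf ratio was 1.54 (95% interval 1.51 to 1.57). *B2m* was at 462.9, 431.6, 437.3 and 587.4 CPM in the same order, with a 7 dpf ratio of 1.34 (1.33 to 1.36). *H2-D1* was at 281.2, 226.2, 239.6 and 329.4 CPM, with a ratio of 1.37 (1.35 to 1.4). For all 3 chains RA_7d stood above the other libraries.

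The peptide-loading genes split. *Tapbp*, the tapasin gene, was at 132.7 CPM in control_4d, 127.0 in RA_4d, 96.45 in control_7d and 141.6 in RA_7d, with a 7 dpf ratio of 1.47 (1.43 to 1.51). *Tap2* was at 17.76 CPM in control_7d and 22.19 in RA_7d, with a 95% interval of the ratio from 1.17 to 1.34. *Tap1*, its partner in the transporter, was at 14.88 and 15.28 CPM, a ratio of 1.03 whose interval (0.952 to 1.11) includes 1. The immunoproteasome genes also had intervals that include 1. *Psmb8* was at 44.14 CPM in control_7d and 45.08 in RA_7d (1.02, 0.978 to 1.07), and *Psmb9* at 11.73 and 12.29 CPM (1.05, 0.962 to 1.14). *Nlrc5* was at 2.645 and 2.806 CPM (1.06, 0.885 to 1.27).

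All 9 ratios lay above 1 at 7 dpf in mesenchymal cells, with a median log2 ratio of 0.31, beside -0.03 for all genes. By the 1.5-fold threshold 1 of the 9, *H2-K1*, was higher and 0 lower, where 4.36% of 17333 genes were higher and 4.58% lower. At 4 dpf 0 of the 9 passed in either direction, where 4.18% of 14252 genes were higher and 2.61% lower. *Nlrc5*, at 2.556 CPM in control_4d and 3.901 in RA_4d, had a plain ratio of 1.53 (1.12 to 2.09). On the scale of CPM plus 1 its log2 ratio was 0.46, short of the threshold. The 3 chains were then below control, with ratios of 0.932 for *B2m*, 0.921 for *H2-K1* and 0.804 for *H2-D1*, and the median log2 ratio of the 9 was -0.04.

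**Figure D3:**
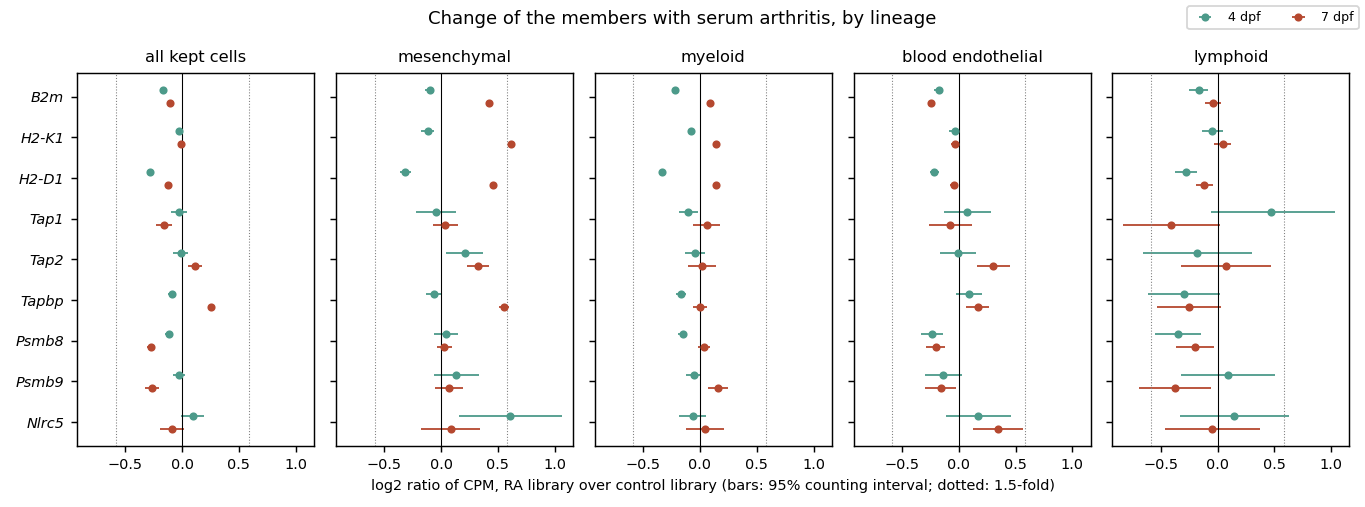
Log2 ratio of RA to control CPM for the 9 genes over all kept cells and in 4 lineages, at 4 and 7 dpf. Bars are exact 95% counting intervals of the ratio and dotted lines mark 1.5-fold. Points are drawn without the added 1 CPM. *Nlrc5* in mesenchymal cells at 4 dpf (ratio 1.53) therefore lies past the line but was not counted as past the threshold. In the mesenchymal panel *H2-K1* reaches 0.62 at 7 dpf, past the line, after -0.12 at 4 dpf.

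Haematopoietic markers were measured in the mesenchymal sums. All 7 had UMIs in mesenchymal cells, and their summed level was 243.1 CPM in control_4d, 174.5 in RA_4d, 379.9 in control_7d and 289.6 in RA_7d, against 11080 to 16650 CPM in myeloid cells. At 7 dpf the markers were lower in RA and the surface chains higher. At 4 dpf markers and chains were both lower in RA. The part of RNA from haematopoietic cells in the chain levels was not tested at either time. The make-up of the lineage differed as well. Fibroblast-like cells made up 31.3% of mesenchymal cells in control_7d and 40.9% in RA_7d, fibroblast precursor-like cells 13.7% and 21.7%, mesenchymal progenitor-like cells 35.2% and 24.3%, and osteochondral-like cells 8.16% and 3.4%. With the class shares held equal in both libraries, the log2 ratio of *H2-K1* at 7 dpf was 0.44 in place of 0.62, below the 1.5-fold threshold, that of *B2m* 0.30 and that of *Tapbp* 0.41. Under the same setting *Tap1*, *Psmb8*, *Psmb9* and *Nlrc5* lay between -0.09 and -0.04, on the other side of 0.

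The higher chain levels at 7 dpf were present within each of the 3 largest mesenchymal classes. In fibroblast-like cells (1011 in control_7d, 1662 in RA_7d) *H2-K1* was at 220.8 and 314.8 CPM, a ratio of 1.43 (1.38 to 1.47). In mesenchymal progenitor-like cells (1138 and 989) it was at 135.8 and 190.4 CPM, a ratio of 1.4 (1.35 to 1.46). In fibroblast precursor-like cells (444 and 882) it was at 253.6 and 369.1 CPM, a ratio of 1.46 (1.4 to 1.52). *B2m* had ratios of 1.34, 1.28 and 1.18, and *Tapbp* of 1.26, 1.45 and 1.42 in these classes. *Psmb8* had 1.04, 1.0 and 0.856, so that precursor-like cells were lower for it (0.78 to 0.94).

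**Figure D4:**
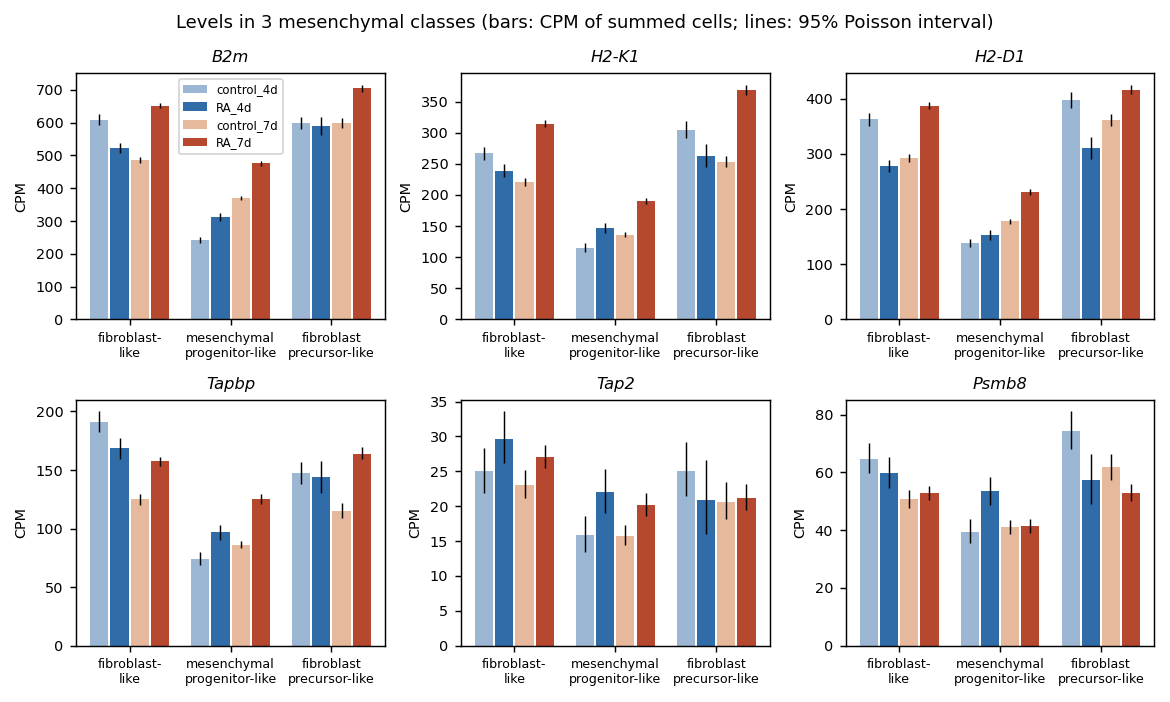
CPM of 6 of the genes in the 3 largest mesenchymal classes of the 4 libraries, with axes from 0 and exact 95% Poisson intervals as error bars. *H2-K1* is higher in RA_7d than in control_7d in all 3 classes, at 314.8 against 220.8 CPM in fibroblast-like cells, and *Psmb8* is not.

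Cycling mesenchymal-like cells (163 and 71) went the same way for the chains at 7 dpf, with ratios of 1.35 for *B2m*, 1.43 for *H2-K1* and 1.29 for *H2-D1*, while *Psmb8* (0.67) and *Psmb9* (0.537) were below control. *H2-K1* and *Psmb8* were lower in RA callus in tenocyte-like and osteochondral-like cells. In tenocyte-like cells at 7 dpf *H2-K1* was at 201.4 CPM in control_7d and 155.6 in RA_7d (0.773, 0.707 to 0.844) and *Psmb8* at 27.52 and 15.38 CPM (0.559, 0.427 to 0.729). In osteochondral-like cells *H2-K1* was at 95.59 and 66.91 CPM (0.7, 0.607 to 0.806) and *Psmb8* at 7.042 and 2.974 CPM (0.422, 0.206 to 0.799). At 4 dpf, mesenchymal progenitor-like cells (262 and 273) already had higher levels of all 3 chains, with *B2m* at 241.7 and 312.7 CPM (1.29, 1.22 to 1.37), and *Psmb9* at 7.455 and 16.95 CPM (2.27, 1.7 to 3.07). Fibroblast-like cells at 4 dpf had *H2-D1* at 362.7 and 277.9 CPM (0.766, 0.727 to 0.808). The summed haematopoietic markers were lower in RA than in control in each of these comparisons, at 464.3 and 349.4 CPM in tenocyte-like, 361.0 and 291.7 CPM in osteochondral-like, 252.5 and 198.6 CPM in progenitor-like and 329.2 and 94.57 CPM in fibroblast-like cells. Their part in the lower levels was not tested. The direction of a gene differed between classes at the same time.

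**Figure D5:**
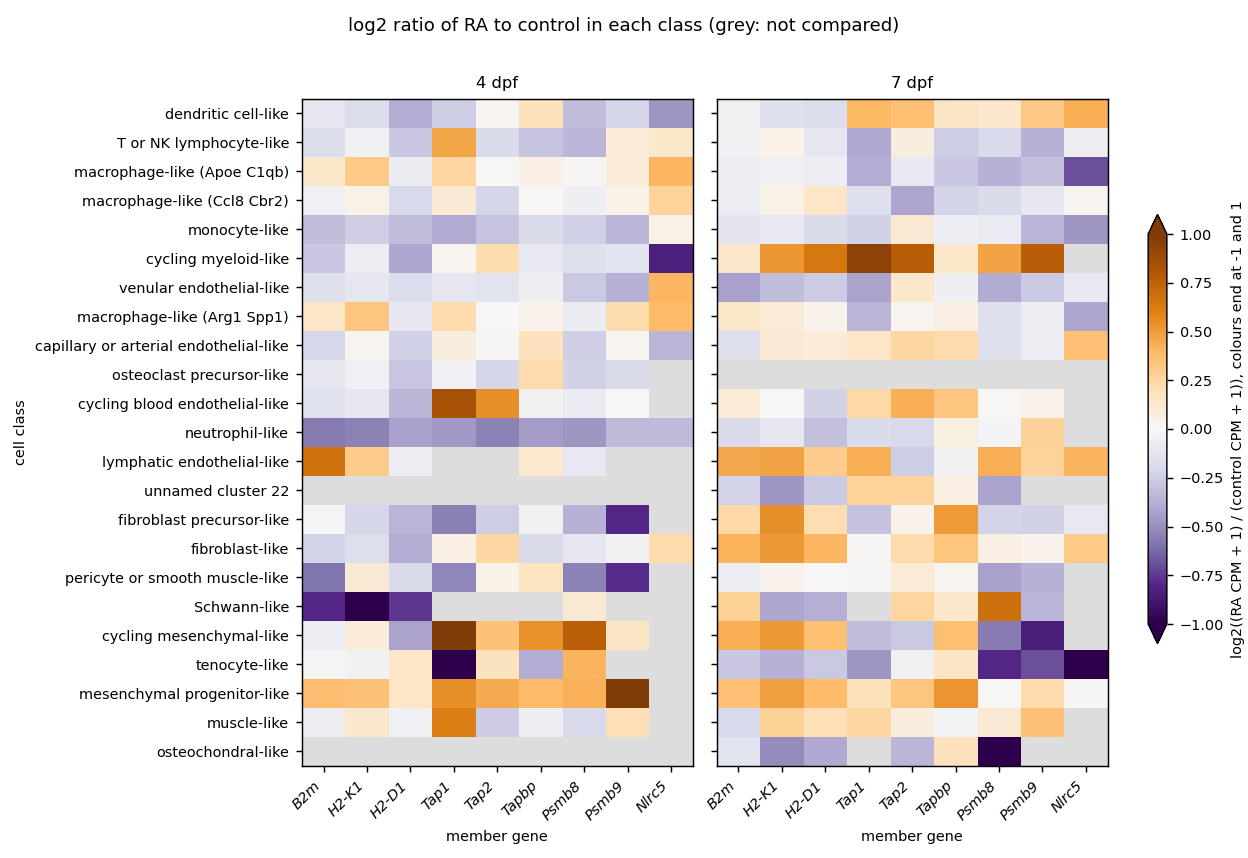
Log2 ratio of RA to control CPM for the 9 genes by cell class, at 4 and 7 dpf. Grey cells had under 50 UMIs over both libraries or under 20 cells in either. At 7 dpf *H2-K1* is highest in fibroblast precursor-like cells (0.54) and lowest in osteochondral-like cells (-0.51).

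In the summed myeloid cells the chains were lower in RA callus at 4 dpf and slightly higher at 7 dpf. *H2-D1* was at 1416 CPM in control_4d and 1125 in RA_4d (0.795, 0.786 to 0.804), and at 1609 in control_7d and 1770 in RA_7d (1.1, 1.09 to 1.11). *B2m* had ratios of 0.861 and 1.06. The make-up of the myeloid cells differed between the libraries, with neutrophil-like cells at 1.19% in control_4d and 9.28% in RA_4d. Its part in the ratios was followed by an alternative chosen after seeing the data. With class shares held equal, the log2 ratio of *H2-K1* was 0.09 at 4 dpf and 0.02 at 7 dpf, so that its change of sign was lost, that of *B2m* was -0.02 and 0.00, and that of *H2-D1* was -0.22 and 0.02. At 4 dpf 4.33% of 13934 genes were higher and 2.3% lower by 1.5-fold, and at 7 dpf 4.52% of 13109 higher and 2.44% lower, and 0 of the 9 genes passed at either time. The neutrophil-like class is led by *Camp*, *S100a9* and *Ngp*, with *Elane* and *Prtn3* also among its leading genes, and how mature its cells are was not tested. Neutrophil-like cells, with 40 cells in control_4d and 224 in RA_4d, had all 9 ratios below 1 at 4 dpf, with *B2m* at 831.9 and 560.5 CPM (0.674, 0.625 to 0.727). Their median log2 ratio was -0.46 over the 9 genes, beside -0.04 for all genes. The largest myeloid class, macrophage-like cells led by *Arg1* and *Spp1*, had 7 of 9 log2 ratios above 0 at 4 dpf, with 1.11 for *B2m* and 1.26 for *H2-K1*, and macrophage-like cells led by *Apoe* and *C1qb* had 1.1 and 1.24. The median log2 ratios of the 9 genes were 0.15 and 0.09 in these classes, beside 0.06 for all genes in each. At 7 dpf the *Apoe* and *C1qb* class had 0 of 9 above 0, with a median log2 ratio of -0.28, beside 0.02 for all genes.

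In T or NK lymphocyte-like cells, the only lymphoid class, *Psmb8* was lower in RA callus at both times, at 332.5 and 260.5 CPM at 4 dpf (0.783, 0.681 to 0.903) and at 357.4 and 311.3 CPM at 7 dpf (0.871, 0.774 to 0.981). *H2-D1* was also lower at both, with ratios of 0.825 and 0.922. None of the 9 passed the threshold, where 6.67% of 6428 genes were higher and 8.32% lower at 4 dpf, and 4.29% of 7084 higher and 5.65% lower at 7 dpf. The class held 96 to 291 cells, so its intervals are wide, with *Tap1* at 4 dpf at 1.39 (0.959 to 2.04). It also sums T and NK cells together. *Cd8a*, named after its value was seen, was at 24.52 and 35.62 CPM in it at 4 dpf, on 25 and 67 UMIs. At 7 dpf *Cd8a* was at 24.14 and 6.327 CPM, on 31 and 15 UMIs. The part of the mix of T and NK cells in the ratios was not tested.

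Blood endothelial cells had *B2m* lower in RA callus, at 929.3 and 821.3 CPM at 4 dpf (0.884, 0.86 to 0.908) and at 1246 and 1053 CPM at 7 dpf (0.846, 0.828 to 0.864). *Psmb8* was lower at both times as well, with ratios of 0.85 and 0.868. The haematopoietic markers in these cells summed to 606.9 and 382.6 CPM at 4 dpf and to 676.1 and 587.2 CPM at 7 dpf, and their part in the lower levels was not tested. *Tap2* was higher at 7 dpf, at 48.52 and 59.91 CPM (1.23, 1.12 to 1.37), and so was *Nlrc5*, at 21.29 and 27.02 CPM (1.27, 1.09 to 1.48). Venular endothelial-like cells, in which *Nlrc5* averaged 35.89 CPM, made up 34.0% of blood endothelial cells in control_7d and 49.4% in RA_7d. Their own *Nlrc5* ratio at 7 dpf was 0.937 (0.772 to 1.14). In capillary or arterial endothelial-like cells *Nlrc5* was at 12.03 CPM in control_7d (9.72 to 14.72) and 15.69 in RA_7d (13.15 to 18.57). Of the 13 classes with enough UMIs to compare *Nlrc5* at 7 dpf, 0 had a counting interval of the ratio above 1. Cycling blood endothelial-like cells had 14.11 and 27.44 CPM, on only 19 and 20 UMIs. With class shares held equal the log2 ratio of the lineage was 0.12 in place of 0.33 for *Nlrc5* and 0.21 in place of 0.30 for *Tap2*. Of the 9 genes 0 passed 1.5-fold, where 2.03% of 12396 genes were higher and 2.34% lower at 4 dpf, and 4.1% of 13028 higher and 4.24% lower at 7 dpf.

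The immunoproteasome share within mesenchymal cells was higher in RA callus although *Psmb8* and *Psmb9* were not. *Psmb8* made up 24.51% of its pair in control_7d (23.81 to 25.21) and 34.63% in RA_7d (33.82 to 35.45), and 32.14% and 37.39% at 4 dpf. *Psmb9* made up 6.85% and 10.64% at 7 dpf and 9.498% and 12.0% at 4 dpf. The constitutive partners were lower in RA_7d. *Psmb5* was at 136.0 CPM in control_7d and 85.1 in RA_7d (0.626, 0.609 to 0.644) and *Psmb6* at 159.5 and 103.2 CPM (0.647, 0.631 to 0.664). In myeloid cells at 7 dpf *Psmb5* was at 152.2 and 111.6 CPM and *Psmb6* at 180.6 and 135.7 CPM, lower in RA as well. So they were in blood endothelial cells (153.2 and 97.93, 141.9 and 102.1), and hardly in lymphoid cells (98.1 and 94.49, 97.33 and 95.76). Over the libraries the *Psmb8* share ran from 59.69% to 67.4% in myeloid and from 51.49% to 59.15% in blood endothelial cells. RA_7d had the highest share in both. In lymphoid cells the share ran from 72.38% to 78.46% and was highest in control_7d. Osteochondral-like cells, with the lowest shares, made up 8.16% of mesenchymal cells in control_7d and 3.4% in RA_7d. The part of this make-up in the shares was not tested. All 10 constitutive subunits on the list were below control in mesenchymal cells at 7 dpf, with a median log2 ratio of -0.42, beside -0.03 for all genes. Of the 10, 3 (*Psmb5*, *Psmb6*, *Psma7*) were past 1.5-fold, where 4.58% of 17333 genes were lower.

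Other genes of the pathway were followed as lists. Of 12 other class I chains, 10 could be compared in mesenchymal cells at 7 dpf. Of these, 9 were above control, with a median log2 ratio of 0.29, beside -0.03 for all genes. *H2-T23*, which encodes the chain that presents leader peptides to NK cell receptors, was at 27.12 and 47.54 CPM (1.75, 1.67 to 1.84), and *H2-Q4* at 9.757 and 15.32 CPM (1.57, 1.44 to 1.71), the 2 past the threshold. At 4 dpf *H2-T23* was lower in RA, at 53.72 CPM in control_4d and 39.85 in RA_4d, so RA_7d was below control_4d. *H2-Q4* was then at 14.87 and 16.23 CPM. *H2-T23* was also higher at 7 dpf in blood endothelial (77.83 and 116.1 CPM) and myeloid cells (126.3 and 140.8), and lower in lymphoid cells (189.2 and 170.8). Of all genes compared in mesenchymal cells at 7 dpf, 4.36% were higher by 1.5-fold and 4.58% lower. Among 12 further processing and loading genes the median was -0.09 and 0 passed. The chaperone gene *Calr* was at 867.2 and 674.1 CPM (0.777, 0.769 to 0.786) and *Hspa5* at 931.2 and 728.0 CPM (0.782, 0.774 to 0.79). In this lineage the 3 chaperone genes *Calr*, *Canx* and *Hspa5* were lower while *Tapbp* was higher.

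Of 16 regulators of class I transcription, 0 passed the threshold in mesenchymal cells at 7 dpf and the median log2 ratio was 0.10. Among all genes compared there, 4.36% were higher by 1.5-fold and 4.58% lower, with a median of -0.03. *Irf1*, an interferon-induced activator of these promoters, was at 36.78 and 40.09 CPM (1.09, 1.04 to 1.14). Of 24 interferon response genes 15 were above control in mesenchymal cells, with a median of 0.16. *Iigp1*, an interferon-γ-induced GTPase, was at 24.86 and 44.26 CPM (1.78, 1.69 to 1.88), and *Gbp2* at 16.05 and 24.7 CPM (1.54, 1.44 to 1.65), the 2 that were past 1.5-fold higher. *Cxcl10*, which attracts T cells, was at 35.3 and 20.65 CPM (0.585, 0.553 to 0.619), and *Ifit3* at 15.55 and 7.551 CPM (0.486, 0.443 to 0.532), the 2 that were past it lower. *Gbp2* was named after its value was seen, because it completes the count. At 4 dpf 8 of 22 comparable genes of this list were lower by 1.5-fold and 0 higher, where 2.61% of all genes compared were lower and 4.18% higher. *Iigp1* was then at 51.69 CPM in control_4d and 39.89 in RA_4d, and *Gbp2* at 27.26 and 20.55 CPM. For both, control_7d was the lowest library and RA_7d was below control_4d. *Cxcl10* was at 29.98 and 29.28 CPM at 4 dpf, and *Ifit3* at 28.29 and 15.81 CPM. At 7 dpf *Iigp1* was also higher in myeloid (8.778 and 19.61 CPM) and blood endothelial cells (311.4 and 549.2 CPM). *Cxcl10* was lower in both (29.91 and 18.96, 60.94 and 27.02 CPM), and so was *Ifit3* (23.75 and 16.13, 15.43 and 11.72 CPM). *Gbp2* was lower in myeloid cells (22.79 and 18.42 CPM) and at 57.62 and 61.28 CPM in blood endothelial cells.

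A list of receptors and ligands around the reading of class I was followed over all kept cells, since most are expressed by lymphoid and myeloid cells. It also holds *Cd274* and *Pdcd1*, which are not receptors for class I. At 7 dpf 2 of 10 were higher and 2 lower by 1.5-fold, where 4.71% of all genes compared were higher and 3.37% lower. Those higher were *Klra7* at 2.004 and 4.152 CPM (2.07, 1.8 to 2.39) and *Klrc1* at 1.863 and 3.66 CPM (1.96, 1.7 to 2.28), both NK cell receptors. Those lower were the inhibitory myeloid receptors *Lilrb4a* at 66.41 and 32.51 CPM (0.49, 0.473 to 0.507) and *Pirb* at 51.01 and 31.86 CPM (0.625, 0.602 to 0.648). The share of lymphoid cells was 2.14% in control_7d and 3.54% in RA_7d, and that of myeloid cells 35.2% and 19.5%. Whether these shares account for the receptor levels was not tested.

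Along the time course, the summed mesenchymal cells of control and RA callus parted for the chains. From 4 to 7 dpf *H2-D1* had a ratio of 0.852 (0.83 to 0.874) in control and of 1.46 (1.41 to 1.5) in RA. *B2m* had ratios of 0.945 and 1.36, and *H2-K1* of 0.844 and 1.41. In RA the chains were higher at 7 dpf in the other lineages as well. *B2m*, *H2-K1* and *H2-D1* had RA ratios of 1.24, 1.28 and 1.57 in myeloid cells, against 1.0, 1.1 and 1.14 in control. In lymphoid cells the ratios were 1.18, 1.26 and 1.28 in RA and 1.08, 1.18 and 1.14 in control. In blood endothelial cells they were 1.28, 1.45 and 1.26 in RA and 1.34, 1.45 and 1.12 in control. The make-up of the control mesenchymal sums changed over this time, with osteochondral-like cells at 0.101% in control_4d and 8.16% in control_7d. In mesenchymal progenitor-like control cells the chains were higher at 7 dpf, with *B2m* at 241.7 and 370.6 CPM, *H2-K1* at 115.0 and 135.8 CPM and *H2-D1* at 138.6 and 177.7 CPM. Control and RA did not part for *B2m* in this class. Its median over single cells was 200.9 CPM in control_4d and 319.3 in control_7d, and 242.0 in RA_4d and 398.4 in RA_7d. In the summed mesenchymal cells *Psmb8* was lower at 7 dpf in control and in RA, with ratios of 0.833 and 0.826, and so was *Tap1*, with 0.724 and 0.765. The time ratios share libraries with the comparisons of RA with control and are given beside them, not as further support.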

How the data were processed

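The authors deposited, per library, unscaled UMI counts of each gene in each barcode, made with Cell Ranger 7.0.1 on mm10 per the labels. Every value was checked to be a whole number. Single-cell libraries were 10x Genomics 3′ v3.1 libraries of 10000 loaded cells. Whether intronic reads were counted is not given in the sources used here.

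Cells were kept by the limits in the study's methods. They were integrated by canonical correlation analysis (30 dimensions) and clustered on 15 principal components at resolution 0.5 with Seurat 5.3.0 in R 4.3.3, with the 9 genes and related class I genes left out of the 2000 variable genes. Clusters were named from markers, accepting a name from a score of 1, a lead of 0.35 over the next name and 3 detected markers upwards. These limits were set with the clusters in view, and a class need not hold the cells of a like-named cluster of the study. Doublets were called with Scrublet in scanpy 1.11.5 (609 cells, 2.39%) and kept except in an alternative. Lineages combined the named classes.

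Levels are CPM of the summed cells, with exact Poisson intervals. Ratios have exact conditional intervals, and shares of UMIs exact Clopper-Pearson intervals, all at 95%, covering counting error only. Log2 ratios use a pseudocount of 1 CPM, which understates the change of low genes. The work used Python 3.11.15, pandas 2.3.3, scipy 1.17.1, numpy 2.4.6 and matplotlib 3.10.9. The summing and ratio steps were tested on simulated data. With 1 library for each condition and time, conditions were compared without a test.

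The 9 genes and the further lists were chosen with earlier results of these data known. Beyond the 9, genes were named by rule: the 4 of each list with the largest absolute log2 ratio at 7 dpf over all kept cells, and the 5 genes with the most similar profile. Exceptions are stated where they occur. Proteins were not compared here. Alternatives changed the cell filter, doublets, scaling, pseudocount, weighting of cells and classes, integration, resolution, variable genes and fold threshold.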

Additional observations from a re-analysis of the deposited data

Results flagged for a closer look

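The log2 ratio of RA to control had counting intervals on opposite sides of 0 at 4 and 7 dpf for 7 results. Each time point is 1 library per condition, so the difference between the times was not tested, and a difference between libraries cannot be told apart from one between times.

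In mesenchymal cells the ratio of *H2-D1* went from -0.31 at 4 dpf to 0.46 at 7 dpf, a difference of 0.77. That of *H2-K1* went from -0.12 to 0.62 (difference 0.73), and that of *B2m* from -0.10 to 0.42 (difference 0.53). With the looser cell filter clustered again, *B2m* and *H2-K1* were at 0.00 and 0.01 at 4 dpf, no longer below control. Within mesenchymal progenitor-like cells these chains were above control at 4 dpf and at 7 dpf, with no change of sign.

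In myeloid cells the differences were smaller. The ratio of *H2-D1* went from -0.33 to 0.14 (difference 0.47), that of *B2m* from -0.22 to 0.09 (difference 0.30) and that of *H2-K1* from -0.08 to 0.14 (difference 0.22). With class shares held within the lineage, *H2-K1* was at 0.09 and 0.02, with no change of sign, *B2m* at -0.02 and 0.00 and *H2-D1* at -0.22 and 0.02. Over all kept cells *Tapbp* went from -0.09 to 0.25 (difference 0.34).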

How the results depend on the processing

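In mesenchymal cells at 7 dpf, 5 genes (*B2m*, *H2-K1*, *H2-D1*, *Tap2*, *Tapbp*) stayed above control under all 10 alternatives, with *H2-K1* between 0.44 and 0.67 on the log2 scale. *Tap1* (-0.07 to 0.13), *Psmb8* (-0.09 to 0.15), *Psmb9* (-0.05 to 0.22) and *Nlrc5* (-0.04 to 0.13) changed sign. The median of the 9 genes there was 0.31, and 0.21 with a pseudocount of 10 CPM and 0.18 with class shares held within the lineage, an alternative chosen after seeing the data. The number of genes past 1.5-fold there, 1, became 2 with TMM scaling and 0 with cells weighted equally, with class shares held, at resolution 1 and with the looser cell filter clustered again. With the lower fold threshold that was planned, 4 passed there, *B2m*, *H2-K1*, *H2-D1* and *Tapbp*, all higher (11.2% of all genes compared were), and 1 in mesenchymal cells at 4 dpf (*Nlrc5*, higher, 14.3%), 1 in myeloid cells at 4 dpf (*H2-D1*, lower, 8.16%), 2 in lymphoid cells at 4 dpf (*Tap1* higher, 20.1%, and *Psmb8* lower, 19.9%), 2 in lymphoid cells at 7 dpf (*Tap1* and *Psmb9*, lower, 14.9%) and 1 in blood endothelial cells at 7 dpf (*Nlrc5*, higher, 12.8%). In lymphoid cells at 4 dpf 1 gene passed 1.5-fold with cells weighted equally, *Tap1* (log2 ratio 0.75, on 41 and 105 UMIs). The share of all genes was not computed for this or the other counts at 1.5-fold under an alternative. With summed lymphoid cells at 4 dpf it was 6.67% higher and 8.32% lower. Over all kept cells the median at 4 dpf was -0.076 with TMM scaling, -0.10 with cells weighted equally, 0.026 with the looser cell filter and -0.064 with classes weighted equally. At 7 dpf it was -0.13 with TMM scaling, -0.24 with cells weighted equally, -0.045 with the looser cell filter, 0.026 with classes weighted equally and 0.074 with class shares held. In blood endothelial cells it was -0.10 with cells weighted equally, at 4 dpf and at 7 dpf. The cause of these shifts was not tested. Of 774 ratios of single genes under an alternative, 618 moved by less than their counting interval. No paired analysis was possible because each group has 1 library and the groups share fewer than 2 replicate numbers. A fit of condition with day as a term over the 4 libraries would leave 1 degree of freedom and was not run. Depth limits the low genes, with an interval of 0.885 to 1.27 for *Nlrc5* in mesenchymal cells at 7 dpf and of 0.959 to 2.04 for *Tap1* in lymphoid cells at 4 dpf.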
